A study of Mus musculus with 6 samples.

Results

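The RNAs described here are 7 small noncoding transcripts of RNA polymerase III other than tRNA, measured in an eCLIP experiment on mouse Gtsf1 (Asterix), a zinc-finger protein of the piRNA pathway. They are the 7SL genes Rn7s1 and Rn7s2, the Y RNA genes Rny1 and Rny3, the vault RNA gene Vaultrc5, the RNase MRP RNA gene Rmrp and the RNase P RNA gene Rpph1. They were chosen by name. All 7 names occurred once each among the 1753368 features with any read, 5 in the miscellaneous RNA class and Rmrp and Rpph1 in the ribozyme class. Levels are given in RPM, the reads of a feature scaled to library size. Features averaging 1 RPM or more in the crosslinked libraries were tested, which kept all 7 members and 39872 features in all.

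Every library came from P19 cells, a mouse embryonal carcinoma line, transfected with the MmGtsf1-TEV-Strep construct in the pEF vector, in which the EF-1alpha promoter drives expression, and collected 48 hours later. Crosslinked samples were irradiated with ultraviolet light at 254 nm (400 mJ), which joins RNA covalently to protein, and non-crosslinked samples were not. Lysates were treated with RNase I, the tagged protein was captured on MagStrep type 3 XT beads (pull-down), and part of the lysate was kept as input. There were 2 input and 2 pull-down libraries of crosslinked cells, and 1 of each of non-crosslinked cells. All groups carried the transgene, so the non-crosslinked pull-down is the control for what stays on the beads without a covalent bond. Transfection was transient, and RNA of transfected and untransfected cells in a lysate cannot be told apart. The labels do not say whether replicates came from separate cultures, so p-values measure the spread between these libraries, which may be technical.

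RNA polymerase III makes short, abundant RNAs, most of which act inside a ribonucleoprotein (RNP). 7SL RNA is the scaffold of the signal recognition particle, which brings ribosomes making secreted and membrane proteins to the endoplasmic reticulum. Y RNAs are stem-loop RNAs bound by Ro60 and, at the 3′ end, by La, and vault RNAs are found partly in the vault, a large cytoplasmic particle built of the major vault protein. RNase P RNA is the catalytic RNA that removes the 5′ leader of tRNA precursors, and the related RNase MRP RNA takes part in the processing of ribosomal RNA precursors. RNase P and RNase MRP share most of their proteins. Vault RNA genes, like tRNA genes, have promoter boxes inside the transcribed region, whereas the Y, RNase P and RNase MRP genes are driven from upstream elements.

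The libraries held between 13168593 and 18418166 reads. A library's RPM is a share of all its reads, and rRNA took between 58.2% and 60.6% of the crosslinked libraries but 69.7% and 70.1% of the non-crosslinked ones. Values that cross these groups are therefore also given with rRNA left out, scaled to the annotated reads other than rRNA. Markers of pluripotent cells such as Pou5f1, at 46.3 and 40.1 RPM in the crosslinked inputs, and Lin28a, at 42.1 and 35.2 RPM, were present, while Nanog stood at 1.12 and 0.616 RPM and Dppa5a at 0 and 0.0543 RPM. All 10 markers summed to 159 and 127 RPM in the crosslinked inputs, against 6.95 and 6.32 RPM for 4 fibroblast markers and 0.714 and 0.796 RPM for 3 endoderm markers. The endoderm markers summed to 3.90 and 4.16 RPM in the crosslinked pull-downs, of which Gata6 alone held 3.75 and 3.68 RPM, and to 0.283 RPM in the input and 2.60 RPM in the pull-down without crosslinking. None of their features was abundant enough to be tested. The 3 neuron markers summed to 43.2 and 40.7 RPM in the inputs and 33.9 and 29.7 RPM in the pull-downs. The part of these markers in the results was not tested.

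Crosslinked pull-down was compared with crosslinked input to find which of these RNAs were recovered with the tagged protein. Vault RNA rose, 7SL RNA fell, and the other RNAs did not pass the test, with Rmrp higher in the pull-downs and the Y RNAs and Rpph1 lower. By edgeR's quasi-likelihood test with Benjamini-Hochberg adjustment over all tested features, 3 of 7 members were called at an adjusted p under 0.05, as were 9.88% of all features. Of these, 1 member was called higher and 2 lower, against 6.41% and 3.47% of all features. The 2 called lower were the 7SL copies, whose counts are nearly equal. They enter every member count and median here as 2 members. All 7 had an unadjusted p under 0.05, as did 22.8% of all features. For all 7, pull-down and input values did not overlap, which was so for 68.5% of all features: 2 members had both pull-downs above both inputs (10.8% of all features) and 5 had both below (57.7%). In the non-crosslinked pair all 7 members were lower in the pull-down, as were 84.3% of all features, and with rRNA left out 6 of 7 were lower, against 69.3%. The median log2 ratio was -0.93 over the members and -0.21 over all features. Without a filter on low values, 942601 features were tested and edgeR called none of them, members included, with 41845 at an unadjusted p under 0.05.

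**Figure D1:**
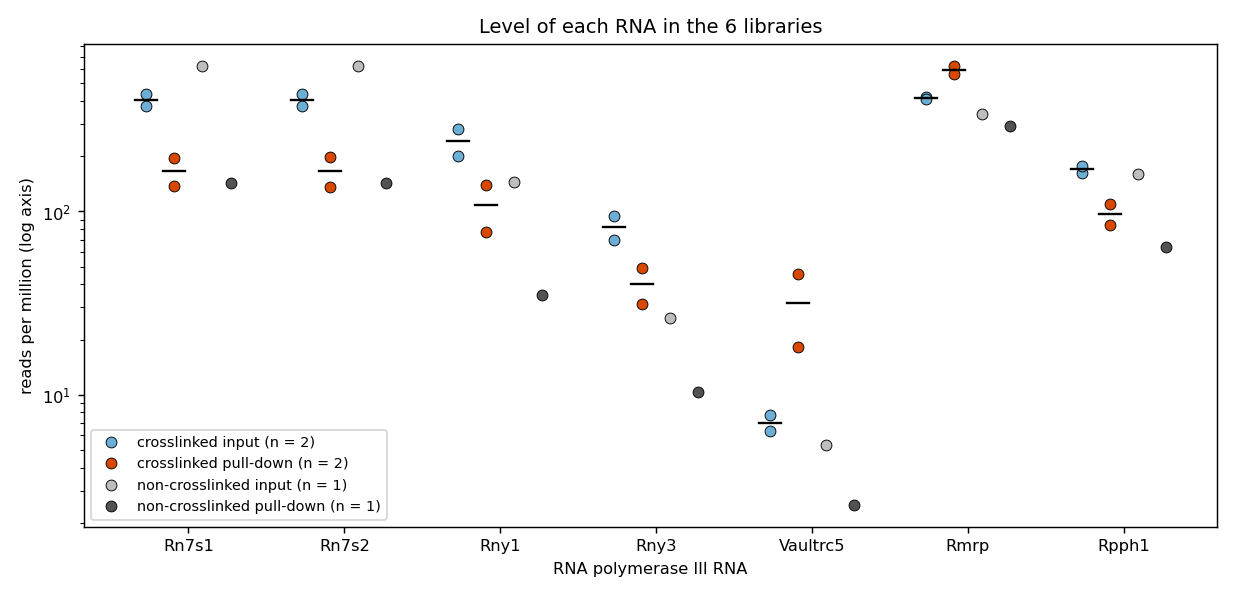
Level in RPM on a log axis for each RNA, with 1 point per library and a black bar at the mean of the crosslinked groups. Vaultrc5 and Rmrp have both crosslinked pull-downs above both crosslinked inputs, and the other 5 RNAs have both below.

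7SL RNA, the most abundant of these RNAs in the inputs, fell in the pull-down. The 2 genes lie on chromosome 12 at chr12:69159295-69159593 and chr12:69361183-69361481 (RefSeq, GRCm38.p6, the same assembly as mm10), 299 bases each and 201589 bases apart. Their counts differed by between 0.0130% and 0.867% of their mean in the 6 libraries, and they were whole numbers (within 0.001) in 1 library of 6. Such values arise when reads that match both copies are divided between them, so neither copy is certain as a single gene and the sum is given as well. Rn7s1 measured 440.3 and 376 RPM in the inputs of crosslinked cells and 137 and 196 RPM in their pull-downs, and without crosslinking 623 RPM in the input and 143 RPM in the pull-down. Rn7s2 ran the same way, with 440.2 and 376 RPM in the inputs of crosslinked cells and 137 and 198 RPM in their pull-downs. Every input lay above every pull-down, with or without crosslinking.

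Summed over both copies, 7SL RNA had an input level of 816 ± 91.5 RPM and a pull-down level of 334 ± 84.7 RPM with crosslinking (SD, n = 2 each), a ratio of 0.409. The edgeR log2 ratio of the sum was -1.20 (SE 0.25, adjusted p 0.0310). For the single copies it was -1.20 for Rn7s1 (SE 0.24, adjusted p 0.0293) and -1.19 for Rn7s2 (SE 0.24, adjusted p 0.0309). Without crosslinking the ratio of the sum was 0.230 in RPM (95% interval 0.222 to 0.238 from counting error only) and 0.328 with rRNA left out. The edgeR call was lost without crosslinked pull-down 1 (adjusted p 0.0698 for Rn7s1 and 0.0728 for Rn7s2) and with TMM scaling factors (0.0808 and 0.0850), and under DESeq2 the adjusted p was 0.0907 and 0.0989. With the replicate number as a block, the edgeR adjusted p was 0.0606 and 0.0625. The direction held in each of these.

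The Y RNAs, which Ro60 and La bind, were lower in the pull-downs without passing the test. Rny1 (chr6:47788070-47788180, 111 bases) and Rny3 (chr6:47781624-47781724, 101 bases) are neighbours with 6345 bases between them. Rny3 had whole counts in all 6 libraries but Rny1 in 2 of 6, so Rny1 too is uncertain as a single gene. Rny1 measured 283 and 201 RPM in the inputs of crosslinked cells and 77.3 and 139 RPM in their pull-downs, and without crosslinking 145 RPM in the input and 35.2 RPM in the pull-down. The non-crosslinked pull-down was the lowest library, and crosslinked pull-down 2 lay close under the non-crosslinked input in RPM. Rny3 measured 94.7 and 69.9 RPM in the inputs of crosslinked cells and 31.1 and 49.4 RPM in their pull-downs, and without crosslinking 26.4 RPM in the input and 10.4 RPM in the pull-down. In RPM all 4 crosslinked libraries of Rny3 lay above both non-crosslinked ones, but with rRNA left out crosslinked pull-down 1 lay below the non-crosslinked input.

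The edgeR log2 ratio was -1.07 for Rny1 (SE 0.33, adjusted p 0.114) and -0.93 for Rny3 (SE 0.28, adjusted p 0.106), and -1.03 for their sum (SE 0.32, adjusted p 0.113). In the pull-downs, the replicates of the Y RNAs stood further apart than those of the other members but Vaultrc5. Crosslinked pull-down 2 held 1.80 times the Rny1 level of pull-down 1 and 1.59 times that of Rny3, and input 1 held 1.41 and 1.35 times the levels of input 2. Leaving out 1 library, the edgeR log2 ratio ran from -1.57 to -0.70 for Rny1 and from -1.32 to -0.63 for Rny3. In these fits a lone library is assumed to vary like the other group. Without crosslinking, the pull-down ratio was 0.243 for Rny1 and 0.395 for Rny3 in RPM, and 0.346 and 0.562 with rRNA left out.

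Vault RNA was the member that rose in the pull-down, and the least abundant of the 7. Vaultrc5, on chromosome 18, is listed in RefSeq with a span of 345 bases, and its counts were whole in all 6 libraries, which gives no sign of reads divided with another feature. With crosslinking, the inputs held 7.73 and 6.35 RPM (135 and 117 reads) and the pull-downs 18.1 and 45.4 RPM (292 and 718 reads). Without it, the input held 5.30 RPM (75 reads) and the pull-down 2.51 RPM (33 reads). The crosslinked pull-downs were the highest libraries and the non-crosslinked pull-down was the lowest. With crosslinking the pull-down mean of 31.7 ± 19.3 RPM was 4.51 times the input mean of 7.04 ± 0.975 RPM (SD, n = 2 each).

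The edgeR log2 ratio of Vaultrc5 was 2.27 (SE 0.44, adjusted p 0.0248), above that of 95.6% of all tested features. Its size depended on the library. Pull-down 1 stood at 2.57 times the input mean and pull-down 2 at 6.44 times. The edgeR log2 ratio was 1.44 without pull-down 2 and 2.79 without pull-down 1. In these fits the lone pull-down shows no spread, so only the size of the ratio is given. With the replicate number as a block the call was lost (log2 ratio 2.13, edgeR adjusted p 0.0572). Inputs were taken from the lysates, but the labels do not say that libraries with the same number share one. In the non-crosslinked pair the ratio went the other way, at 0.473 in RPM (95% interval 0.314 to 0.712 from counting error only) and 0.674 with rRNA left out. This difference between crosslinked and non-crosslinked libraries was not tested, because the non-crosslinked groups have 1 library each.

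Rmrp was higher in the crosslinked pull-downs, by less than Vaultrc5 and without passing the test. It lies at chr4:43492785-43493059 (275 bases), and its counts were whole in all 6 libraries. It measured 421 and 414 RPM in the inputs of crosslinked cells and 621 and 564 RPM in their pull-downs, and without crosslinking 339 RPM in the input and 294 RPM in the pull-down. Replicates lay close together, at 417 ± 5.11 RPM in the inputs and 592 ± 40.4 RPM in the pull-downs (SD, n = 2 each). The edgeR log2 ratio was 0.60 (SE 0.18, adjusted p 0.108), and with TMM factors, which place the median feature at a log2 ratio of -0.0043, it was 0.80 (adjusted p 0.0472). The non-crosslinked ratio was 0.867 in RPM (95% interval 0.831 to 0.905 from counting error only) but 1.24 with rRNA left out, so its direction depends on the scaling.

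Rpph1, the RNase P RNA, was lower in the pull-downs, opposite to its relative Rmrp. It lies at chr14:50807447-50807771 (325 bases), and its counts were whole in 0 of 6 libraries, as where reads are divided between like features. It measured 163 and 178 RPM in the inputs of crosslinked cells and 84.2 and 111 RPM in their pull-downs, and without crosslinking 159 RPM in the input and 63.9 RPM in the pull-down. All inputs lay above all pull-downs. The edgeR log2 ratio was -0.71 (SE 0.21, adjusted p 0.103). The non-crosslinked ratio was 0.401 in RPM (95% interval 0.370 to 0.434 from counting error only) and 0.571 with rRNA left out, against 0.572 and 0.656 in the crosslinked libraries.

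**Figure D2:**
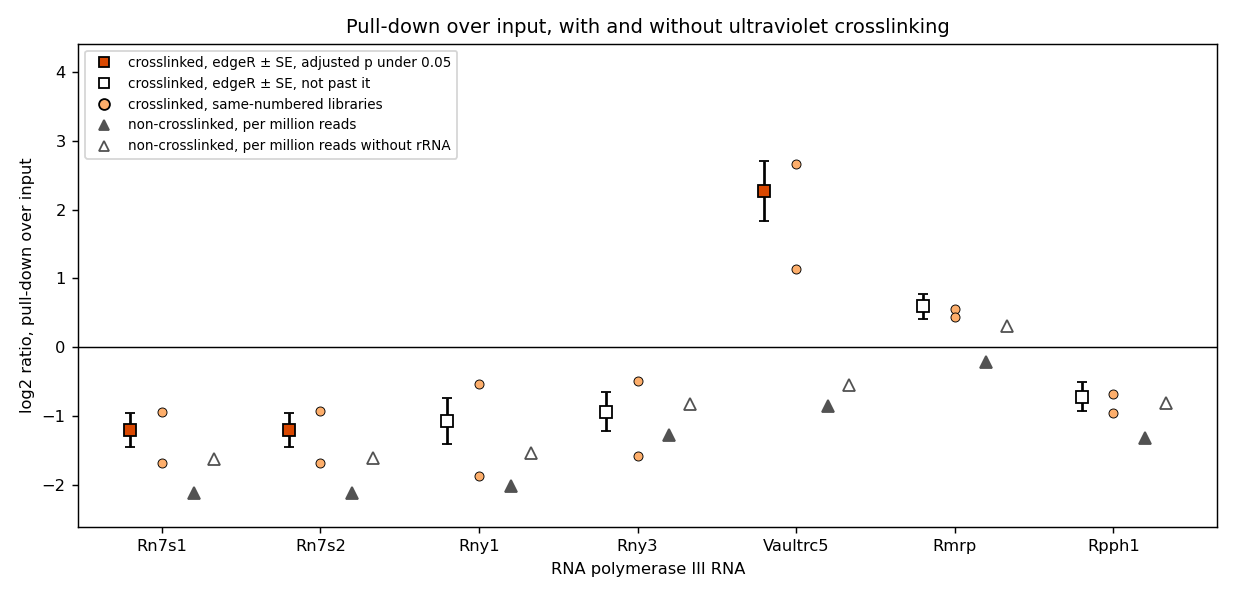
Log2 ratio of pull-down over input for each RNA: squares give the edgeR ratio with its standard error over the crosslinked libraries, filled where the adjusted p is under 0.05, circles the same-numbered crosslinked libraries, and triangles the non-crosslinked pair (n = 1 each) on 2 scalings. Vaultrc5 has the only crosslinked ratios above 1 on the log2 scale, while its non-crosslinked ratios are below 0.

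The RNAs were then set against each other within each library, as differences of log2(RPM + 1). The scaling between libraries largely cancels in these, except for Vaultrc5, whose levels are low enough for the added 1 RPM to matter. Of 21 pairs of members, 16 had a log2 difference in the crosslinked pull-downs that did not overlap that in the crosslinked inputs. Of the pairs of a member with another tested feature, 93.2% did not overlap, a larger share than among the pairs of members, so the count itself is no result about the members. The 7SL copies enter these pairs separately although their counts are nearly equal, and without Rn7s2 the count was 12 of 15. With 6 ways to divide 4 libraries, a two-sided exact permutation test can reach no p below 0.333, and no pair could pass. The smallest value found after Benjamini-Hochberg adjustment over the 21 pairs was 0.438. The 5 pairs that overlapped were Rn7s1 with Rn7s2, each of these with Rny1, and Rpph1 with each Y RNA. Between Rn7s1 and Rny1 the change was -0.11 with a pooled SD of 0.21 (n = 2 each), which is within the spread between replicates.

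The widest of these changes was between Vaultrc5 and 7SL RNA. From input to pull-down, the log2 difference of Rn7s1 minus Vaultrc5 changed by -3.20 in the crosslinked libraries (pooled SD 0.38, n = 2 each) and by -1.27 in the non-crosslinked pair. For Vaultrc5 minus Rmrp the change was 1.39 (pooled SD 0.72) with crosslinking and -0.64 without. Rmrp stood apart from 7SL to a like extent in both comparisons, since Rn7s1 minus Rmrp changed by -1.81 (pooled SD 0.34) with crosslinking and by -1.91 without. Rmrp minus Rpph1 changed by 1.31 (pooled SD 0.27) with and 1.10 without.

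The same shift showed in the make-up of the reads of the 7 RNAs, which held 0.185% and 0.162% of the crosslinked inputs and 0.111% and 0.130% of the crosslinked pull-downs. 7SL RNA made up 47.6% and 46.4% of these reads in the crosslinked inputs and 24.8% and 30.2% in the pull-downs. Rmrp made up 22.7% and 25.5% of them in the inputs and 56.2% and 43.3% in the pull-downs. In the non-crosslinked pair, 7SL RNA went from 64.9% to 41.4% and Rmrp from 17.7% to 42.4%. Vaultrc5 went from 0.418% and 0.392% in the crosslinked inputs to 1.64% and 3.49% in the pull-downs. In the non-crosslinked pair it had 0.276% in the input (95% Wilson interval 0.220 to 0.346%) and 0.362% in the pull-down (0.258 to 0.508%), and these intervals overlap.

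**Figure D3:**
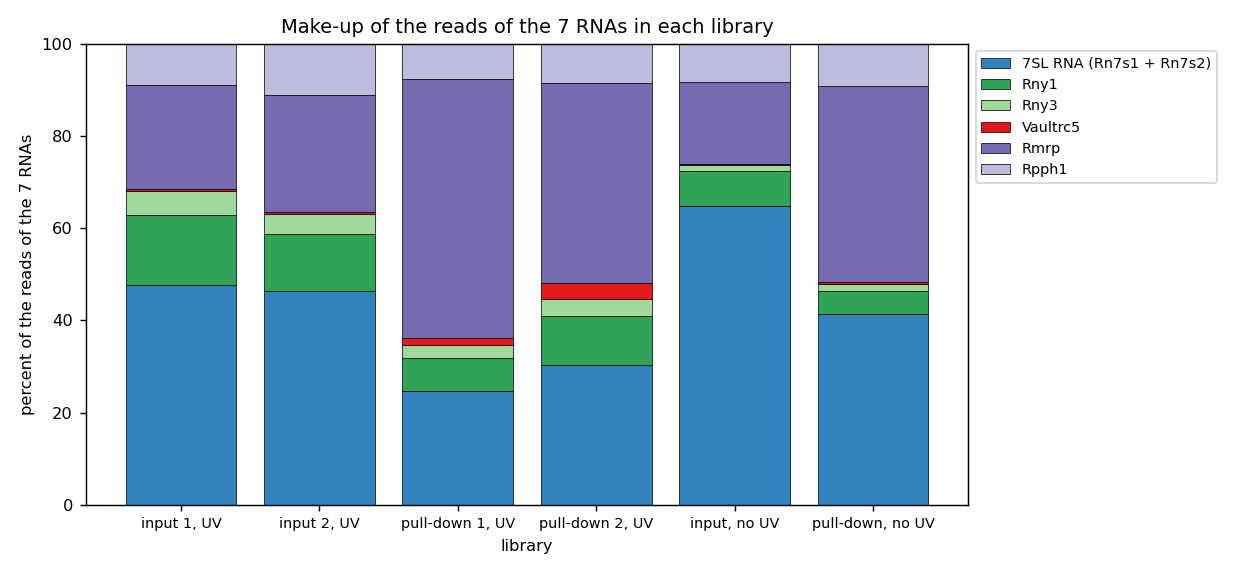
Percent of the reads of the 7 RNAs taken by each RNA, in 1 stacked bar per library that sums to 100, with the 7SL copies summed. Rmrp is the largest part of each pull-down and 7SL RNA the largest part of each input, with and without crosslinking.

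Levels of different RNAs were compared per length, as RPM per kilobase of the RefSeq span, with the 7SL copies summed over the length of 1 copy. In the crosslinked inputs 7SL RNA had 2729 ± 306 RPM per kb and Rny1 2181 ± 524 (SD, n = 2 each). The values of these neighbours overlapped between libraries, but within each of the 6 libraries 7SL RNA stood above Rny1. Rmrp followed with 1517 ± 18.6 RPM per kb, Rny3 with 815 ± 173, Rpph1 with 524 ± 32.1 and Vaultrc5 with 20.4 ± 2.82. In the crosslinked pull-downs Rmrp stood at the top with 2154 ± 147 RPM per kb, above 7SL RNA at 1116 ± 283 and Rny1 at 974 ± 392, which overlapped each other. Rny3 at 399 ± 128 and Rpph1 at 299.7 ± 57.2 RPM per kb also overlapped, though Rny3 stood above Rpph1 within each crosslinked pull-down. By this measure Vaultrc5 was the lowest in all 6 libraries and reached 92.0 ± 55.9 RPM per kb in the crosslinked pull-downs. Its RefSeq span may be longer than the mature RNA, and a shorter length would raise its level per kilobase. In the non-crosslinked input Rpph1, at 490 RPM per kb, stood above Rny3 at 261, the reverse of their order in both crosslinked inputs.

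Crosslinked and non-crosslinked inputs show the share of reads that each RNA took in libraries made from the lysate, not its amount there. 7SL RNA was lower in the crosslinked inputs, at 0.707 and 0.603 of the non-crosslinked level in RPM and 0.476 and 0.449 with rRNA left out. Rny3 was higher, at 3.59 and 2.65 times the non-crosslinked level in RPM and 2.42 and 1.97 times with rRNA left out. Rny1 was at 1.95 and 1.39 times, or 1.32 and 1.03 times with rRNA left out. Vaultrc5 was at 1.46 and 1.20 times in RPM but 0.983 and 0.893 times without rRNA, and Rmrp at 1.24 and 1.22 times but 0.836 and 0.909 times, so their direction turned with the scaling. Rpph1 also turned, at 1.02 and 1.12 times in RPM and 0.689 and 0.831 times without rRNA. With 1 non-crosslinked input these differences have no replicate check.

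Between the pull-downs themselves, Vaultrc5 was at 7.23 and 18.1 times its non-crosslinked level in RPM and at 4.05 and 10.5 times with rRNA left out. The Y RNAs followed, with Rny3 at 2.99 and 4.75 times in RPM (1.68 and 2.76 with rRNA left out) and Rny1 at 2.20 and 3.95 times (1.23 and 2.30). Rmrp was at 2.11 and 1.92 times in RPM and at 1.18 and 1.12 times with rRNA left out. For Rpph1 and 7SL RNA the direction depended on the scaling and on the library. Rpph1 was at 1.32 and 1.73 times in RPM but at 0.739 and 1.01 times with rRNA left out. 7SL RNA was at 0.955 and 1.37 times in RPM and at 0.535 and 0.799 times with rRNA left out. The non-crosslinked pull-down is 1 library, with 33 reads of Vaultrc5, so these ratios have no replicate check.

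The profile most like that of Vaultrc5 was sought among 2043 other tested features averaging 10 RPM or more over the 6 libraries, by the root mean square difference of log2(RPM + 1) values centred on each feature's mean. The 3 nearest were tRNA-Ala-CGC-1-1, tRNA-Ala-TGC-3-1 and tRNA-Ala-CGC-1-2, whose levels were nearly equal to one another in each library, with differences of 0.190, 0.192 and 0.196. Across the 6 libraries their Pearson correlation with Vaultrc5 was 0.988 for each, a description of points that share library and depth. tRNA-Ala-CGC-1-1 measured 34.6 and 40.1 RPM in the inputs of crosslinked cells and 80.6 and 246 RPM in their pull-downs, and without crosslinking 34.7 RPM in the input and 14.8 RPM in the pull-down. Its edgeR log2 ratio was 2.22, beside 2.27 for Vaultrc5, a likeness largely fixed by the choice on the same libraries. The median log2 ratio over the 260 tested tRNA features was 3.92, while the summed RPM of the whole class rose 5.91 times. Pull-down 2 held 2.50 times the Vaultrc5 level of pull-down 1 and 2.68 times the level of the whole tRNA class, while the median log2 difference between these pull-downs over all tested features was -0.07.

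Related genes of the same 2 classes did not all move with the members. They were picked for this comparison after their values were seen, and since relatives can share reads, they are uncertain as single genes. Rprl3, an RNase P RNA-like gene, measured 20.9 and 27.3 RPM in the inputs of crosslinked cells and 51.6 and 66.4 RPM in their pull-downs, and without crosslinking 22.6 RPM in the input and 25.1 RPM in the pull-down. Its edgeR log2 ratio was 1.38 (SE 0.23, adjusted p 0.0142), whereas that of Rpph1 was -0.71. For Rprl2, at a mean of 3.07 RPM over the crosslinked libraries, the edgeR estimate was 1.89 (SE 0.19, adjusted p 0.00140). Its pull-down was higher without crosslinking too, at 2.56 RPM against 0.730 RPM in the input, a ratio of 3.50 (95% interval 1.74 to 7.03 from counting error only), or 4.99 with rRNA left out. With crosslinking the ratio was 3.49 in RPM and 3.99 with rRNA left out. Rn7s6 of the 7SL family did not pass, and its crosslinked inputs (56.9 and 66.0 RPM) overlapped its pull-downs (55.4 and 87.3 RPM) (edgeR log2 ratio 0.31, SE 0.26, adjusted p 0.542). The differences between these genes and the members were not tested.

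**Figure D4:**
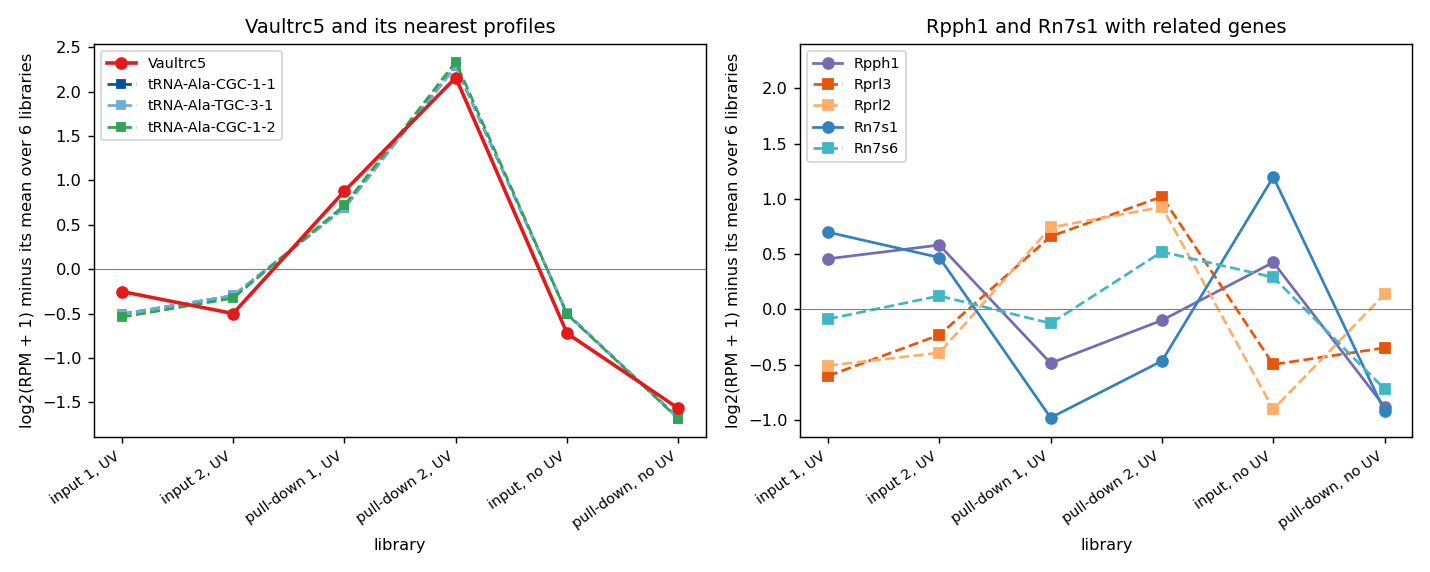
Log2(RPM + 1) minus each feature's own mean over the 6 libraries, with lines that only guide the eye, for Vaultrc5 and its 3 nearest tRNA profiles (left, where the tRNA lines nearly coincide) and for Rpph1 and Rn7s1 with related genes (right). Rprl3 is high in the crosslinked pull-downs where Rpph1 is low, and Vaultrc5 is highest in crosslinked pull-down 2, as are the tRNAs.

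Other transcripts of RNA polymerase III give the setting for these values. Of 260 tested tRNA features, edgeR called 233 higher and 0 lower, with a median log2 ratio of 3.92 (259 higher and 0 lower at an unadjusted p under 0.05, and 250 and 0 called by DESeq2). Features were kept by their mean over crosslinked inputs and pull-downs, so high pull-downs alone could admit a feature. All 869 tRNA features with reads summed to 1047 and 1050 RPM in the crosslinked inputs. They summed to 3375 and 9033 RPM in the pull-downs, whose mean was 5.91 times the input mean. The 5S repeat features summed to 54151 and 48745 RPM in the crosslinked inputs and to 19206 and 18609 RPM in the pull-downs, and of 87 tested, 35 were called higher and 43 lower. The annotated 5S genes, named n-R5s, went the other way, with 9 of 9 tested features called higher and sums of 223 and 205 RPM in the inputs and 707 and 620 RPM in the pull-downs. 7SK repeat features summed to 1031 and 691 RPM in the inputs and 557 and 604 RPM in the pull-downs, although edgeR called 8 of the 14 tested higher and 0 lower (10 and 1 at an unadjusted p under 0.05, and 7 and 0 called by DESeq2). The 5S, n-R5s and 7SK sums hold reads split between many copies. In the non-crosslinked pair, the ratio of the summed RPM was 0.805 for tRNA, 0.348 for 5S repeats, 3.18 for n-R5s and 0.577 for 7SK repeats. With rRNA left out of the scaling these ratios were 1.15, 0.495, 4.54 and 0.822, so the direction of tRNA turned with it.

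The messenger RNAs of the proteins in these particles had few features with the reads to be tested as exons, introns or pre-mRNA. With so few features, the counts are a description, to be read against the 6.41% of all features called higher and the 3.47% called lower. Of 5 tested features of the signal recognition particle proteins, edgeR called 0 higher and 1 lower, the pre-mRNA of Srp72 (log2 ratio -1.05, SE 0.21, adjusted p 0.0300). Of 2 features of the Ro60 particle proteins, 1 exon part of Trove2, which encodes Ro60, was called lower (edgeR log2 ratio -0.92, SE 0.19, adjusted p 0.0337). The single feature of the vault proteins and the 2 of the RNase P and MRP proteins were not called by edgeR, with 1 and 0 of them lower at an unadjusted p under 0.05. Of 12 features of RNA polymerase III subunits, 0 were called higher and 1 lower, the pre-mRNA of Polr3a (edgeR log2 ratio -1.19, SE 0.28, adjusted p 0.0477). Of 30 features of the polymerase's transcription factors, edgeR called 0 in either direction, with 1 higher and 4 lower at an unadjusted p under 0.05. DESeq2 called 0 features of these 6 lists. Their medians lay between -1.06 and -0.19, beside -0.21 over all features.

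The authors' deposited table gives each feature an enrichment ratio by a formula that is not stated. Vaultrc5 had 10.1 in the authors' deposited table, above 98.7% of its 216085 features, and Rmrp had 2.22. The other values in the authors' deposited table were 0.860 for Rpph1, 0.769 for Rny1, 0.668 for Rn7s2, 0.665 for Rn7s1 and 0.663 for Rny3. The median over all features in the authors' deposited table was 1.37.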

How the data were processed

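RNA recovered by eCLIP in 6 libraries was counted over annotated features. The authors deposited expected counts per feature, many of them not whole numbers, and RPM values, which scale the same counts to all reads of the library, unannotated reads (between 6.99% and 14.4%) included. How reads that match several features were counted is not given in the sources used here. A deposited ratio per feature for the whole series has no stated formula. Per the submitters' processing notes, bcl2fastq 2.19, STAR 2.5.2b, bedtools 2.29.0 and the mm10 build were used. The removal of PCR duplicates and the source of the annotation are not given in the sources used here.

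Rounded counts of the crosslinked libraries, 2 pull-downs against 2 inputs, were fitted with edgeR 4.0.16 in R 4.3.3 (quasi-likelihood test, library sizes of annotated reads, no further factors, Benjamini-Hochberg adjustment over 39872 features). The standard error is the log2 ratio divided by the square root of the quasi F statistic. Descriptive log2 values used a pseudocount of 1 RPM, which understates the change of low features. limma 3.58.1 and DESeq2 1.42.0 were alternatives, as were other scalings, filters, pseudocounts, a replicate block, summed members and each library left out. Scaling the non-crosslinked pair without rRNA was added after the data were seen. The edgeR script, tested on simulated data for this comparison, found 167 of 200 features given a log2 change of 2 among 39872, and made 7 false calls. The simulated features were independent, with the same dispersion for all and no shift of the median. The real data differ in this, so these counts give no error rate for them. Wilson intervals are at 95%. Intervals cover counting error only, since PCR copies are not independent molecules.

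The members and lists were chosen with earlier results of these data known. The text names the 7 members, their sums by RNP, for each member the 3 features with the nearest profile, and features of the listed genes that were called. Other features were named after their values were seen.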

Additional observations from a re-analysis of the deposited data

Results flagged for a closer look

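Vaultrc5 was higher in both crosslinked pull-downs than in the same-numbered inputs (log2 ratios 1.13 and 2.66 on the log2(RPM + 1) scale) but not in the non-crosslinked pair, where its log2 ratio was -0.85. Rmrp differed in the same way, with crosslinked log2 ratios of 0.56 and 0.45 and a non-crosslinked value of -0.20, which turned to 0.30 when rRNA was left out of the scaling. Neither difference between crosslinked and non-crosslinked libraries was tested, since the non-crosslinked groups have 1 library each.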

How the results depend on the processing

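The direction of each member's crosslinked log2 ratio held under all alternatives run. Of all features, edgeR called 2556 higher and 1384 lower, and without a filter on low values none of 942601 (41845 at an unadjusted p under 0.05). A minimum of 5 RPM gave 551 and 407. The lower count alone moved to 634 with TMM factors, 2213 with unannotated reads in the library sizes, 238 with DESeq2, and 2318, 2223 and 2114 with limma at pseudocounts of 1, 0.25 and 5. Leaving out 1 library gave 2577 to 2762 higher and 841 to 2170 lower, in fits where a lone library is assumed to vary like the other group.

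Of the members, 1 was called higher and 2 lower, the latter being the nearly equal 7SL copies. edgeR called 0 and 0 without a filter and with the replicate block (2 and 5 at an unadjusted p under 0.05 in both), 2 and 0 with TMM factors (4 lower unadjusted), and DESeq2 called 0 lower (3 unadjusted). Of all 39872 features, 10240 had an unadjusted p under 0.05 with the block, 6825 with TMM factors and 3668 with DESeq2, in either direction. limma with a pseudocount of 0.25 called 3 lower, and leaving out 1 library gave 1 higher and 0 to 4 lower. The log2 ratio was -0.98 for Rn7s1 and -0.98 for Rn7s2 with TMM factors, -0.98 and -0.97 with DESeq2, and -1.20 and -1.19 without a filter (adjusted p 0.481 and 0.501). Leaving out 1 library, it ranged from -1.50 to -0.95 for Rn7s1, -1.50 to -0.94 for Rn7s2, -1.57 to -0.70 for Rny1 and -1.32 to -0.63 for Rny3. Vaultrc5 had 2.27 without a filter (adjusted p 0.674), Rmrp 0.80 with TMM factors, and Rpph1 -0.82 with limma at a pseudocount of 0.25 (adjusted p 0.0462).

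The labels number the replicates but do not pair them (the deviations of same-numbered libraries had a Pearson correlation of 0.111 over features). With the replicate block the log2 ratio was -1.22 for Rn7s1, -1.21 for Rn7s2 and 2.13 for Vaultrc5 (edgeR adjusted p 0.0606, 0.0625 and 0.0572), and the counts over all features were 2532 higher and 1657 lower. Without rRNA in the scaling, an alternative added after the data were seen, the non-crosslinked log2 ratio of Rmrp turned from -0.20 to 0.30 and 6 members in place of 7 were lower in that pull-down. Depth limits Vaultrc5 most, with 33 reads in the non-crosslinked pull-down.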

Other observations

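The nearest profiles of the other members fell into different kinds of RNA, again as descriptions over 6 libraries. For Rny1 all 3 were snoRNA features, and the nearest was Snora81, an H/ACA guide RNA, with a root mean square difference of 0.153. Snora81 measured 394 and 383 RPM in the inputs of crosslinked cells and 135 and 213 RPM in their pull-downs, and without crosslinking 239 RPM in the input and 51.7 RPM in the pull-down. Gm26493 (0.198) and Gm24455 (0.220) came next. For Rny3 all 3 were also snoRNA features, namely Gm24455 (0.272), Snora65 (0.281) and Snora62 (0.295). For Rn7s1 and Rn7s2 the nearest was an exon of Rplp1, which encodes a ribosomal stalk protein, with differences of 0.0855 and 0.0824, followed by introns of Zfp949. The nearest to Rmrp was the snoRNA feature Gm25878 (0.140), with crosslinked inputs of 81.8 and 62.5 RPM and pull-downs of 97.5 and 101 RPM, followed by introns of Fgfr2 (0.151) and 5730522E02Rik (0.157). The nearest to Rpph1 were an exon of Nucks1 (0.151), the repeat feature 5S-602 (0.160) and an exon of Aff4 (0.161).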
